A study of Danio rerio with 25 samples.

Results

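miR-31 is known from mouse and human skin as a microRNA of keratinocytes, the cells that form the epidermis. Its single hairpin in the table, dre-mir-31, is 1 of 346 zebrafish (Danio rerio) microRNA hairpins whose reads were counted in skin, and 1 of the 258 that had enough reads to be tested. It was chosen by name for its levels over age, so those levels are described here and carry no p-value. The tests below concern other hairpins: those that differed between the same ages, and those that varied with miR-31 among libraries of one age.

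The data are small-RNA sequencing libraries from the skin of male fish at 5 ages, with 5 libraries each, 25 in all. The 6-month and 24-month fish carried the strain label AB JxTü, with no transgene. The 12-month fish carried that label with the reporter Tg(flk:mCherry), the 36-month fish with Tg(pu.1:GFP) and the 42-month fish with Tg(wt1a:GFP). These fluorescent reporters are driven by promoters known from endothelium (flk), myeloid cells (pu.1) and kidney podocytes (wt1a). Strain and age cannot be told apart in any comparison but that of 24 with 6 months. Whether libraries of one age came from separate fish is not said in the labels, so the p-values measure spread among libraries, part of which may be technical. Replicate numbers only name libraries. Library totals ran from 683884 reads (42 months, replicate 2) to 5206505 reads (12 months, replicate 5).

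In mouse and human skin, miR-31 is made by keratinocytes, rises at the wound edge and in psoriasis downstream of NF-κB, and favours proliferation and migration of the epidermis over the hair cycle and repair. A microRNA of this kind is cut from a hairpin precursor into a mature strand of either arm, which lowers the stability and translation of the messages it pairs with. Reads were counted per hairpin, so the arms of miR-31 are not separated here. Which cells of the fish skin held miR-31 was not tested. In the RefSeq annotation of the GRCz12tu assembly, dre-mir-31 is a microRNA gene on chromosome 7 that overlaps the long non-coding RNA LOC141375218. Its neighbours there are the protein-coding genes LOC101883122 and hgfac.

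miR-31 was low in every 6-month library and higher in every later one. Levels are CPM, the reads of a hairpin per 1000000 reads of its library, with the library total corrected by TMM, a factor that removes differences in overall composition. At 6 months the 5 libraries held 55.5, 40.9, 54.4, 37.4 and 60.1 CPM, a mean of 49.7 ± 9.89 (SD, n = 5). At 12 months they held 90.4, 185.5, 159.3, 181.1 and 137.2 CPM, a mean of 150.7 ± 38.8 (SD, n = 5). The groups of 6 and 12 months did not overlap, and replicate 1 was the lowest at 12 months. At 24 months the values were 132.6, 224.2, 168.6, 149.8 and 158.5 CPM, a mean of 167 ± 34.7 (SD, n = 5). At 36 months they were 159.2, 140.9, 210.4, 187.0 and 117.9 CPM, a mean of 163 ± 36.6 (SD, n = 5). Both groups lay wholly above the 6-month libraries and overlapped the 12-month group and each other. At 42 months the values were 152.6, 170.1, 156.2, 236.9 and 343.7 CPM, a mean of 211.9 ± 81.2 (SD, n = 5). Replicate 5 was the highest of all 25 libraries, while the other 42-month libraries overlapped those of 12, 24 and 36 months.

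**Figure D1:**
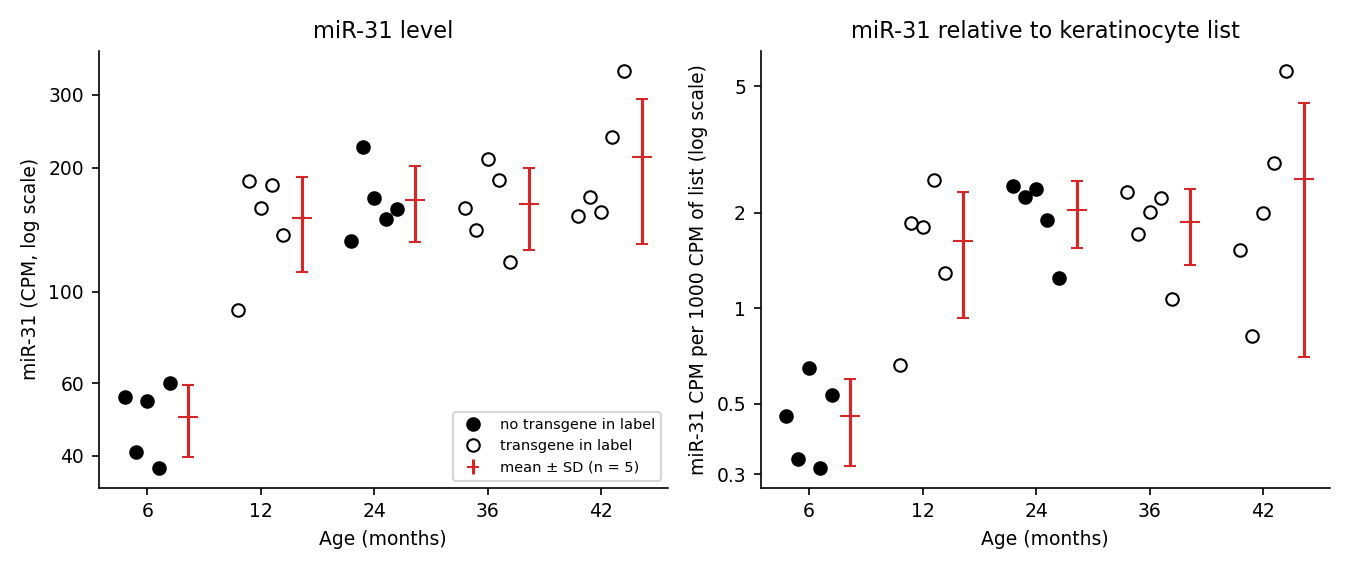
miR-31 by age in months, 1 circle per library, with the mean and SD of 5 libraries beside each group. The left panel gives CPM on a log axis: the 6-month libraries sit between 37.4 and 60.1 and the later ones between 90.4 and 343.7. The right panel gives miR-31 CPM per 1000 CPM of the summed keratinocyte list, also on a log axis. Open circles mark libraries whose strain label names a transgene.

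The step lay between 6 and 12 months, where the strain label changed with age, so its timing cannot be told apart from strain. The 12-month mean was 3.03 times that of 6 months, a log2 difference of 1.60 ± 0.24 (SE) in the edgeR fit over all libraries. Relative to 6 months, the log2 difference was 1.75 ± 0.24 at 24 months, 1.71 ± 0.24 at 36 months and 2.09 ± 0.24 at 42 months. In the comparison of 24 with 6 months, where the strain label is shared, the means differed 3.36-fold. Between later neighbouring ages the differences were smaller, and only that from 36 to 42 months exceeded its SE. They were 0.14 ± 0.23 from 12 to 24 months, -0.03 ± 0.23 from 24 to 36 months and 0.38 ± 0.23 from 36 to 42 months. In order of mean level the ages ran 6, 12, 36, 24 and 42 months, and each neighbouring pair after 6 months overlapped. The size of the lead of 42 months depended on 1 library. Without replicate 5 its mean was 175.6 CPM and its log2 difference from 6 months was 1.83. With all libraries, 24 months stood at 167 CPM and 1.75.

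The lowest later library held 1.51 times the CPM of the highest 6-month library. Every later library lay between 1.82 and 6.92 times the 6-month mean. At 6 months miR-31 had 140 to 300 reads per library, and later libraries had from 102 to 884. On reads scaled to the library total alone, the highest upper 95% bound at 6 months (exact Clopper-Pearson) was 70.0 CPM. The lowest lower bound of any later library was 72.4 CPM. These intervals cover counting error only and treat reads as independent. Reads without molecular identifiers are not independent molecules, so the intervals may be too narrow even for counting error. The spread among libraries of an age was wider than counting of independent reads gives. The coefficient of variation was 19.9% at 6 months against 7.70% from such counting, and 38.3% at 42 months against 5.87%.

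Few hairpins stood apart from 6 months in the same way. In 5 of 258 hairpins (1.94%), every one of the 20 later libraries was above every 6-month library: miR-31, miR-27a and the copies miR-23a-1, miR-23a-2 and miR-23a-4. The miR-23a copies and miR-27a, whose mammalian counterparts are made from a shared precursor, had much narrower gaps. miR-27a had at most 2397 CPM at 6 months and at least 2511 CPM later, and miR-23a-1 had at most 264.5 and at least 267.2 CPM. In the opposite direction, 1.55% of hairpins had every later library below every 6-month library. Ordered by fitted log2 change, miR-31 was 7th of 258 hairpins from 6 to 12 months, 5th at 24 months, 3rd at 36 months and 8th at 42 months.

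None of the hairpins on a list of epidermal microRNAs, which does not hold miR-31, rose from 6 months past the threshold. The keratinocyte list holds 9 hairpins, all tested and all with reads in every library. miR-203 is known in mouse epidermis for restraining the stem-cell factor p63 as cells differentiate, miR-205 for sustaining epithelial and skin stem cells, and the miR-200, miR-141 and miR-429 family for repressing the ZEB factors that turn off epithelial genes. From 6 to 12 months none of the 9 passed the adjusted threshold of 0.05 in either direction (edgeR's quasi-likelihood F test, Benjamini-Hochberg adjustment over all 258 hairpins). miR-203b came nearest, with a log2 change of -0.57 ± 0.17 (edgeR adjusted p = 0.0664). Its fall passed in 3 of 8 alternative settings and in 1 of the 25 fits that left out 1 library. Over all hairpins, 1.16% rose and 2.71% fell in that comparison. Such shares and counts over all 258 hairpins include the fitted miR-31, chosen for its levels, and are no test of it. From 6 to 24 months none of the 9 rose and 6 fell, against 8.91% of all hairpins that rose and 16.3% that fell. All of the 6 but miR-203b were of the miR-200, miR-141 and miR-429 family, so they may not be independent. The list's median log2 change was -0.32 at 12 months and -0.60 at 24 months, beside medians of -0.03 and 0.05 over all hairpins tested.

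miR-203b fell most. At 6 months its libraries held 29194, 34294, 29307, 39224 and 36998 CPM, and at 24 months 13416, 24425, 22071, 15807 and 22538 CPM. The groups did not overlap, and the log2 change was -0.78 ± 0.17 (edgeR adjusted p = 0.00205, n = 5 per age). miR-200b went from a mean of 639.5 ± 85.4 to 421.5 ± 54.5 CPM (SD, n = 5), a log2 change of -0.60 ± 0.13 (edgeR adjusted p = 0.00205). miR-200c fell by 0.62, miR-429a by 0.66, miR-200a by 0.60 and miR-141 by 0.57 on the log2 scale, with edgeR adjusted p-values from 0.00267 to 0.0214. The other 3 members did not pass: miR-203a changed by -0.32 ± 0.20 and miR-429b by -0.32 ± 0.23. The third was miR-205, which at 6 months held 78820, 69412, 38977, 60434 and 54838 CPM and at 24 months 32128, 60859, 37427, 51352 and 92428 CPM. Its groups overlapped throughout (log2 change -0.14 ± 0.36, edgeR adjusted p = 0.806), and its sign turned to 0.0027 under upper-quartile scaling and 0.015 with the copies of a name summed.

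At 36 months 2 of the 9 were lower than at 6 months (miR-200b and miR-200c), against 14.3% of all hairpins, and at 42 months 6 were, against 12.4% (1 without 42 months replicates 1, 2 and 5). None rose from 6 months at any age. From 24 to 36 months miR-203b rose, from 19651 ± 4760 to 32420 ± 7030 CPM (SD, n = 5), against 2.33% of all hairpins. It was the only member of the list that passed in a comparison of neighbouring ages. The 6 lower members at 24 months came to 3 (miR-200b, miR-200c and miR-203b) when 24 months replicate 1 was left out. At 36 months the 2 came to 1 without 36 months replicates 1 or 4 or 6 months replicate 5, and to 4 without 36 months replicates 3 or 5 or 6 months replicate 1. The rise of miR-203b to 36 months did not pass without 24 months replicates 1 or 4, or 36 months replicates 3 or 4.

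Set against the keratinocyte list itself, miR-31 lay apart from 6 months by a narrow gap. This ratio uses the same miR-31 levels, so it is a description and no separate support. Most of the list's sum was miR-205 and miR-203b, with means of 58863 and 26324 CPM over all libraries. The 9 hairpins together held 83641 to 122134 CPM at 6 months and 54761 to 208212 CPM later, with means of 111723 CPM at 6 months and 100637 CPM at 12 months. Per 1000 CPM of the list, miR-31 stood at 0.458 ± 0.140 at 6 months, 1.63 ± 0.697 at 12, 2.04 ± 0.486 at 24, 1.87 ± 0.505 at 36 and 2.56 ± 1.86 at 42 months (SD, n = 5 each). The highest 6-month ratio was 0.650 and the lowest later one 0.661, so the groups lay close without overlapping. In this ratio the library scaling cancels. Taken singly, the ratio of miR-31 to 8 of the 9 members was higher in all 20 later libraries than in any 6-month library; the exception was miR-205. Over all hairpins with reads in every library, this held for 57% of 249. Whether keratinocytes were fewer or held less of these microRNAs per cell cannot be told apart in whole skin. A list of liver and gut microRNAs, with 6 hairpins tested, summed to 1313 to 5428 CPM at 6 months and 2503 to 41000 CPM at 24 months. The mean of this sum was 2984 CPM at 6 months and 12101 CPM at 24 months. The 24-month mean rested largely on the library with 41000 CPM. Of the 6 liver and gut hairpins, 3 rose from 6 to 24 months, against 8.91% of all hairpins. The part of other tissue in the fall of the keratinocyte list was not tested.

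**Figure D2:**
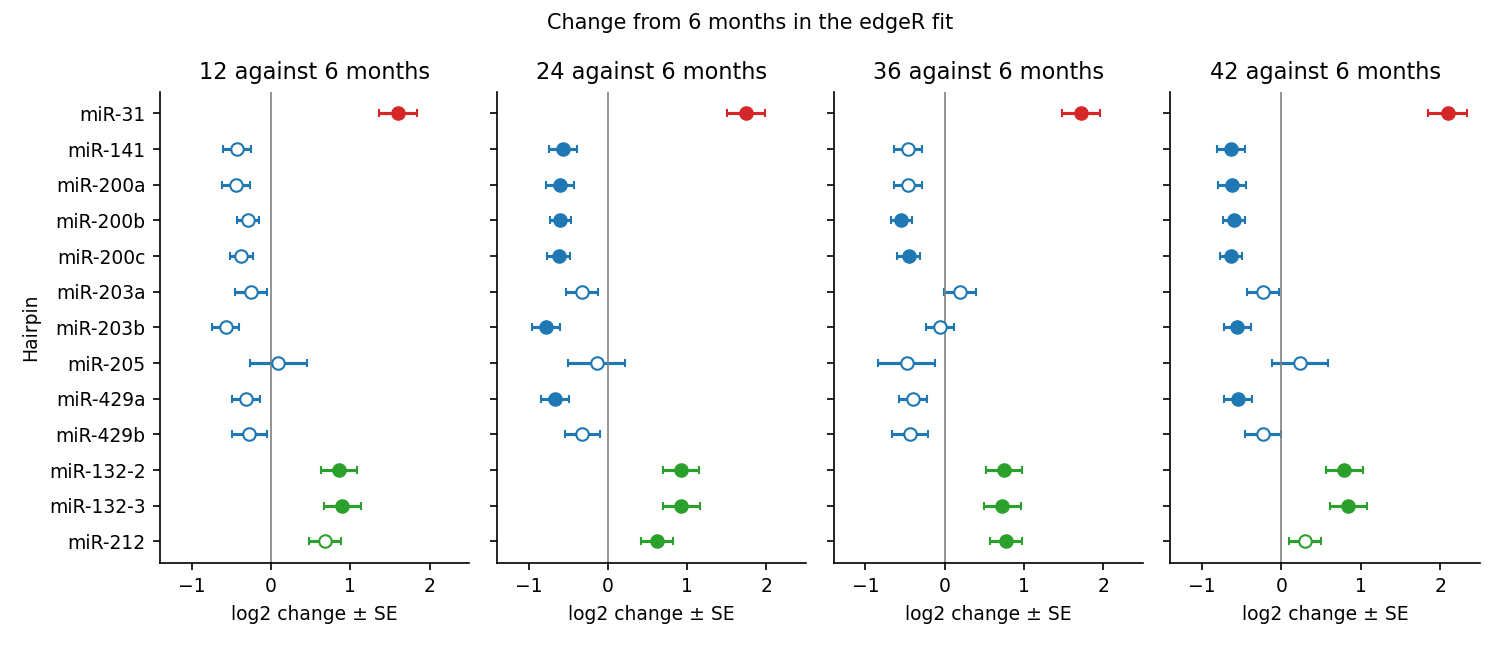
Log2 change from 6 months with its SE in the edgeR fit, 1 panel per later age, for miR-31 (red), the keratinocyte list (blue) and the miR-132 and miR-212 hairpins named in the text (green). Filled blue and green circles passed the adjusted threshold of 0.05 and open ones did not; miR-31 is shown as a description. miR-31 lies between 1.60 and 2.09 in all panels, while the blue circles lie mostly left of 0.

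Among microRNAs known from wounds and inflammation, some copies of miR-132 also rose from 6 to 12 months. The wound list holds 17 hairpins, of which 2 rose and none fell from 6 to 12 months. These were miR-132-2 and miR-132-3, copies of a microRNA induced in human keratinocytes during repair. Among the hairpins other than miR-31, no other rise passed in that comparison. miR-132-2 held 40.1, 31.4, 60.6, 39.2 and 26.4 CPM at 6 months and 76.3, 49.1, 59.7, 85.2 and 87.7 CPM at 12 months. The groups overlapped through replicate 3 at 6 months, and the log2 change was 0.86 ± 0.23 (edgeR adjusted p = 0.0379, n = 5 per age). miR-132-3 changed by 0.90 ± 0.23 (edgeR adjusted p = 0.0379). These copies held similar counts, and copies of a name are not independent measurements. The copy miR-132-1, lower at a mean of 12.5 CPM at 6 months, did not pass (log2 change 0.53 ± 0.25, edgeR adjusted p = 0.166). miR-212, which is made from the same precursor as miR-132 in mammals, went from 38.5 ± 4.76 to 61.7 ± 21.3 CPM (SD, n = 5) and did not pass (log2 change 0.68 ± 0.20, edgeR adjusted p = 0.0560).

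The calls on miR-132 at 12 months depended on single libraries. miR-132-2 and miR-132-3 each passed in 16 of the 25 fits that left out 1 library, with the edgeR adjusted p reaching 0.124. The 2 rises of the wound list from 6 to 12 months became 0 to 3 over these fits. Over all hairpins the rises numbered 19 without 42 months replicate 5. Counts over all hairpins include miR-31, chosen for its levels, and are no test of it. The split of all calls, 3 higher and 7 lower, was 4 and 3 with DESeq2's size factors and 1 and 0 with upper-quartile scaling.

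From 6 to 24 months, 7 of the 17 wound hairpins rose and 1 fell, against 8.91% of all hairpins that rose and 16.3% that fell. The rises were miR-132-1, miR-132-2, miR-132-3 and miR-212, the copies miR-100-1 and miR-100-2, and miR-210, a microRNA induced by low oxygen. miR-132-2 reached 74.8 ± 5.55 CPM (SD, n = 5) with no overlap with 6 months, a log2 change of 0.92 ± 0.23 (edgeR adjusted p = 0.00525). The other rises were from 0.41 (miR-100-2) to 0.93 (miR-132-3) on the log2 scale. miR-155, made by activated immune cells, fell from 97.8 ± 12.1 to 46.4 ± 8.15 CPM (SD, n = 5), a log2 change of -1.08 ± 0.36 (edgeR adjusted p = 0.0304). miR-31 exceeded all of these, at 1.75. The 7 rises came to 2 without 6 months replicates 4 or 5 or 24 months replicate 3, and to 4 without 6 months replicate 2. The fall of miR-155 passed in 18 of the 25 fits that left out 1 library. At 36 months 8 of the list were higher than at 6 months, against 10.9% of all hairpins, and at 42 months 11 were, against 11.6%.

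Over all hairpins, 23 rose and 42 fell from 6 to 24 months. With DESeq2's size factors the split was 33 and 36, and with upper-quartile scaling 26 and 25, which moved the median log2 change of all hairpins from 0.05 to 0.18. The log2 difference of miR-31 less that median was 1.70 with TMM, 1.71 with DESeq2's size factors and 1.66 with upper-quartile scaling. The 23 rises were 10 without 24 months replicate 3, 12 and 13 without 6 months replicates 4 and 5, 35 without 12 months replicate 1 and 38 without 42 months replicate 5. The 42 falls were 23 without 24 months replicate 1.

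No hairpin followed miR-31 among libraries of one age past the threshold. For each of the other 257 hairpins, a slope was fitted on the log2 CPM of miR-31 centred within ages, with age as a term, so that differences between ages and strain labels did not enter. At the adjusted threshold, 0 were positive and 0 negative (0% each, edgeR's quasi-likelihood F test). At an unadjusted p under 0.05 there were 49 (19.1%), of which 19 were positive and 30 negative, and copies counted once they came to 29 names. DESeq2 called 5 positive and 1 negative and limma-voom none. A second measure, the correlation of log2 CPM residuals from the age means over 25 libraries with permutation within ages, also gave 0 of 257 relations past the threshold. Its smallest adjusted p was 0.131 for Pearson's r and 0.149 for Spearman's rho. Of miR-31 itself with the log2 library total within ages, Pearson's r was -0.09 (permutation p = 0.724) and Spearman's rho -0.17 (permutation p = 0.471). Without the 2 libraries farthest from the median, r was -0.23. Differences in depth between ages do not enter these values. The mean library total was 3.79e+06 reads at 6 months and 1.88e+06 at 42 months.

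**Figure D3:**
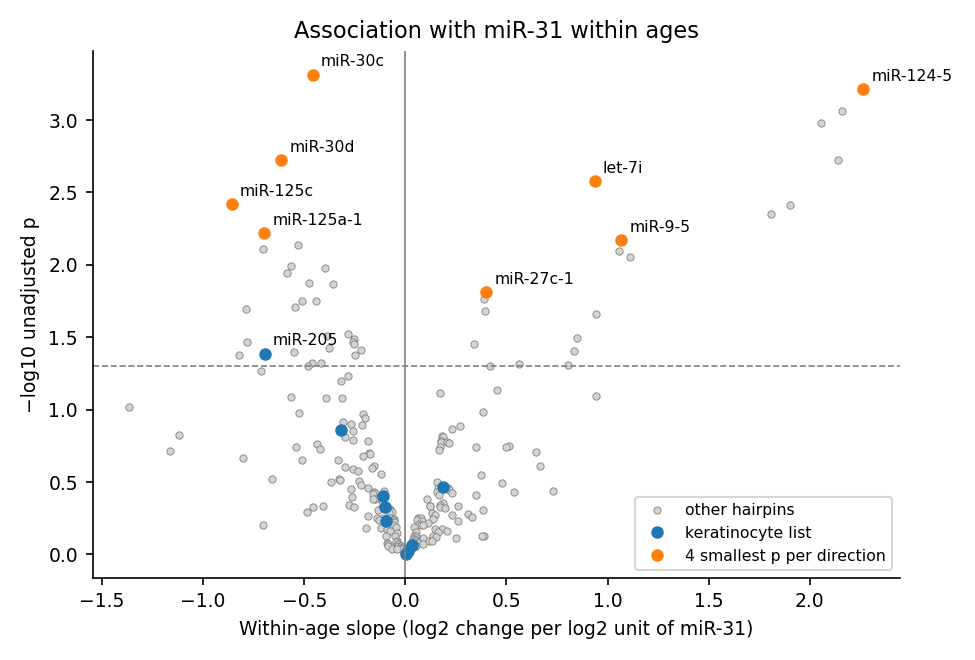
Each of 257 hairpins by its within-age slope (log2 change per log2 unit of miR-31, horizontal) and the −log10 of its unadjusted edgeR p (vertical), with the dashed line at an unadjusted p of 0.05. The keratinocyte list (blue) runs from a slope of -0.70 (miR-205) to 0.18 (miR-203a), with miR-429b at -0.32. The 4 names of smallest p per direction (orange) did not pass the adjusted threshold.

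miR-30c came nearest among the negative slopes. Its slope was -0.46 ± 0.11, in log2 units per log2 unit of miR-31, with an adjusted p of 0.0678 in the edgeR fit. Pearson's r was -0.72 (permutation p = 5.10e-04, adjusted p = 0.131) and Spearman's rho -0.71 (permutation p = 5.80e-04, adjusted p = 0.149), and r was -0.61 without the 2 farthest libraries. At 42 months miR-30c held 1765, 1499, 1589, 1265 and 1120 CPM in replicates 1 to 5, lowest where miR-31 was highest. At 12 months it held 2048, 1257, 1486, 1588 and 1601 CPM, highest in replicate 1, where miR-31 was lowest. In 4 of the 5 ages, the library with the most miR-31 had the least miR-30c. The adjusted p of miR-30c passed when 6 months replicate 2 or replicate 4 was left out and under DESeq2. The slope was 0.15 in the 6-month and 24-month libraries alone.

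The next negative slopes, none past the threshold, were miR-30d (-0.61 ± 0.17, edgeR adjusted p = 0.0813), miR-125c (-0.86 ± 0.27, 0.109) and miR-125a-1 (-0.70 ± 0.23, 0.137). All 3 turned positive in the 6-month and 24-month libraries alone, at 0.32, 0.47 and 0.23. Their r was from -0.62 to -0.55 over 25 libraries and from -0.41 to -0.30 without the 2 farthest libraries. Those libraries were 42 months replicate 5, with the highest miR-31 for its age, and 12 months replicate 1, with the lowest.

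The leading positive slopes belonged to microRNAs of neurons and to let-7i, of the let-7 family that accompanies differentiation. None passed. miR-124-5, a copy of a microRNA of neurons, had a slope of 2.26 ± 0.57 (edgeR adjusted p = 0.0678). At 42 months it held 1.70, 3.33, 4.55, 1.83 and 108.9 CPM, so a single library, the one with the most miR-31, stood far above the others. Its r was 0.56 (permutation p = 0.0347, adjusted p = 0.3598), its rho 0.49 (permutation p = 0.0220, adjusted p = 0.598), and r was 0.29 without the 2 farthest libraries. let-7i, with 414, 273, 362, 482 and 1762 CPM at 42 months, had a slope of 0.94 ± 0.28 (edgeR adjusted p = 0.0974). miR-9-5, also of neurons, had 1.07 ± 0.36 (edgeR adjusted p = 0.137), and miR-27c-1 had 0.40 ± 0.15 (edgeR adjusted p = 0.181). Without 42 months replicate 5 the slopes were 0.44 for miR-124-5, 0.33 for let-7i and 0.24 for miR-9-5, and the unadjusted count over all hairpins went from 49 to 13.

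These counts of 0 depended on which libraries entered. Without 6 months replicate 4, 9 hairpins were positive and 7 negative. The positive ones were 6 copies of miR-124, miR-9-5, miR-9-6 and let-7i, and the negative ones were miR-30c, miR-30d, miR-125a-1, miR-125a-2, miR-125c, miR-214 and miR-455-1. Without 12 months replicate 3, 3 copies of miR-124 were positive, and without 6 months replicate 2, miR-30c was negative. The other 22 omissions gave no call.

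**Figure D4:**
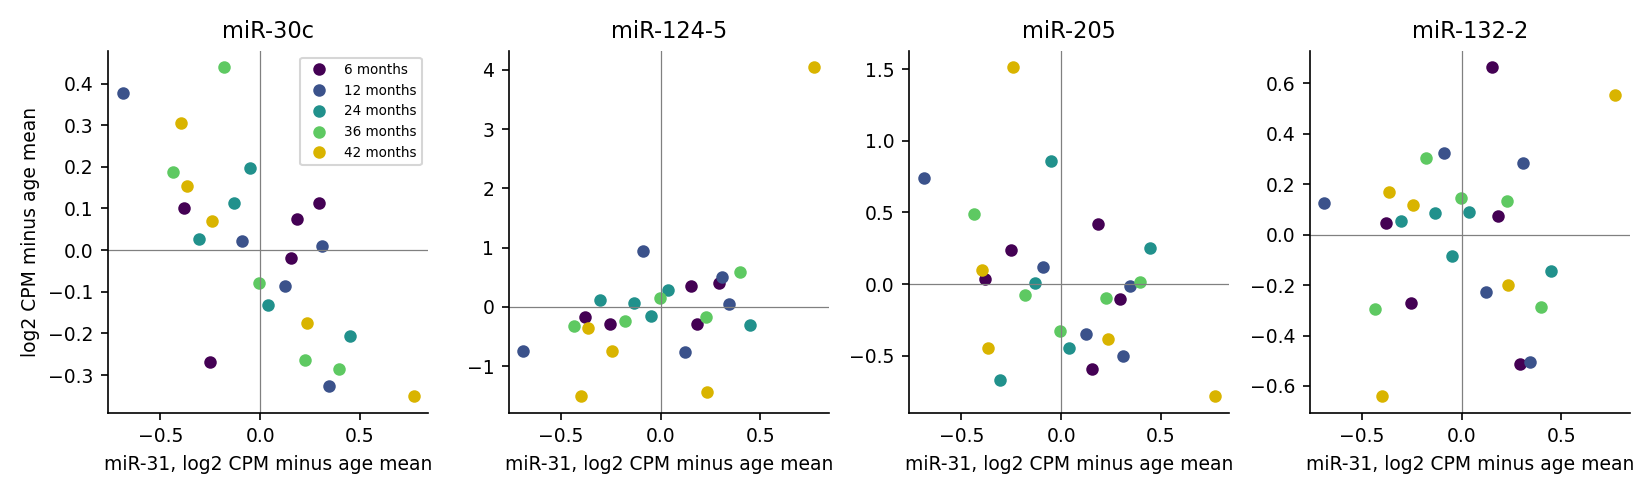
Log2 CPM minus the mean of its age for miR-30c, miR-124-5, miR-205 and miR-132-2 (vertical, 1 panel each) against the same quantity for miR-31 (horizontal), 1 circle per library coloured by age. For miR-30c r was -0.72 and for miR-132-2 it was 0.09; in the panel of miR-124-5, 42 months replicate 5 stands far above the rest.

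In the keratinocyte list 0 of 9 members passed within ages, 4 slopes were positive and their median was -0.09, beside -0.04 over all hairpins. Slopes ran from -0.70 ± 0.32 for miR-205 (edgeR adjusted p = 0.247) to 0.18 ± 0.19 for miR-203a, and that of miR-203b was 0.0020 ± 0.17. The slope of miR-205 was 0.66 in the 6-month and 24-month libraries alone. Among the 17 wound hairpins 0 passed, with slopes from -0.51 to 0.21. miR-132-2, called higher at 12 than at 6 months in groups that overlapped, had a slope of 0.11 ± 0.21 (edgeR adjusted p = 0.849). Its r was 0.09 (permutation p = 0.721, adjusted p = 0.923) and its rho 0.03 (permutation p = 0.904, adjusted p = 0.985). Without the 2 farthest libraries r was -0.06.

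Lists for the other cells that skin samples can hold gave no called member either. The neural list (18 tested hairpins of miR-9, miR-124, miR-128, miR-138 and miR-219) had 13 members with an unadjusted p under 0.05, against 19.1% of all hairpins, and a median slope of 1.00. All 13 were positive and were copies of only miR-124 and miR-9, so they are not independent members. Without 42 months replicate 5, the slope of miR-124-5 went from 2.26 to 0.44 and that of miR-9-5 from 1.07 to 0.24. The unadjusted count over all hairpins was then 13 in place of 49. The mesenchymal list had 3 of 7 at that level, the cartilage list 2 of 3 and the leukocyte list 1 of 4, all negative. The skeletal muscle, erythroid, endothelial, pigment, sensory cluster and liver and gut lists had none. In summed level, where miR-31 rose 3.03-fold from 6 to 12 months, the means of these lists went from 1578 to 1951 CPM (neural), 34912 to 34724 CPM (mesenchymal), 3859 to 3187 CPM (leukocyte) and 8746 to 11274 CPM (skeletal muscle). The neural sum was mostly the copies miR-128-1 and miR-128-2, with means of 704 and 677 CPM over all libraries. By member, the median log2 change from 6 to 12 months was 1.18 (neural), -0.03 (mesenchymal), -0.16 (leukocyte) and 0.34 (skeletal muscle). None of their members passed in that comparison, where 1.16% of all hairpins rose and 2.71% fell. Of the 3 cartilage hairpins 1 fell there, miR-455-2 (log2 change -0.76 ± 0.20, edgeR adjusted p = 0.0379). The mean of the cartilage sum went from 1392 to 1140 CPM. In the erythroid, endothelial, pigment, sensory cluster and liver and gut lists no member passed. The part of these lists in the level of miR-31 was not tested.

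Over the 5 age means, 69 hairpins spanned at least 1 log2 unit, and miR-31 spanned 2.03. Those most like miR-31, by Pearson's r of the 5 means of log2 CPM, were miR-124-2 (0.92), miR-458 (0.86), miR-27c-1 (0.78), miR-223 (0.76) and miR-9-7 (0.72). With 5 points that share libraries and scaling, these values describe the resemblance only. miR-458 had means of 899, 1208, 1603, 1874 and 1885 CPM from 6 to 42 months, a gradual course where miR-31 stepped. miR-223, a microRNA of myeloid cells, had 66.6, 81.9, 119.6, 103.7 and 265.4 CPM, highest in the oldest fish. miR-124-2 had 1.92, 10.4, 6.18, 8.64 and 25.0 CPM, and the last mean rested on the 109.5 CPM of replicate 5. From 6 to 12 months the fold in means was 3.03 for miR-31 and smaller for miR-458, miR-27c-1, miR-223 and miR-9-7. It was larger for miR-124-2, at 1.92 and 10.4 CPM.

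**Figure D5:**
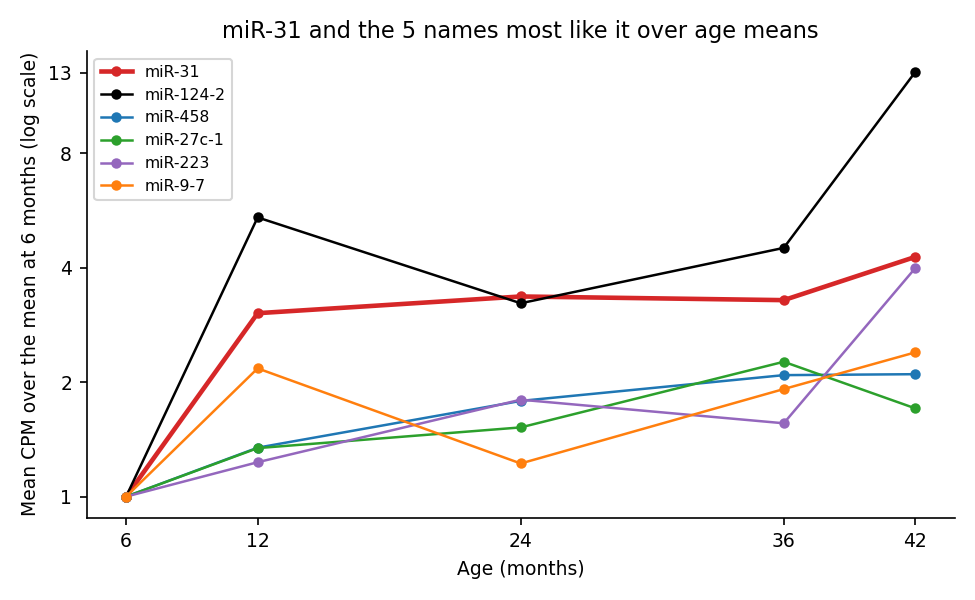
Mean CPM at each age over the mean at 6 months, on a log axis against age in months, for miR-31 (thick red line) and the 5 names whose age means resemble it most. miR-31 is at 3.03 by 12 months and 4.27 at 42 months. miR-124-2, at a few CPM, ends higher.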

How the data were processed

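Small RNA was sequenced from skin with a small-RNA library kit applied to total RNA, per the labels' protocols. The authors deposited 1 table of raw read counts per hairpin, with no normalization. The tools listed, per the submitters' processing notes, include BWA 0.7.12-r1039 and Trimmomatic 0.36, with SAMtools 1.3.1-9 and CASAVA 1.8.4; their roles are not described. The genome build, the hairpin reference, the counting step and the handling of reads that match several copies were likewise not given in the sources used here. Of 346 hairpins, 38 had no read. The last number of a name marks a genomic copy.

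The counts were fitted with edgeR 4.0.16 (R 4.3.3): TMM scaling, filterByExpr by age with a minimum count of 10, quasi-likelihood F tests over 258 hairpins in 1 fit of 25 libraries, and Benjamini-Hochberg adjustment at 0.05. Within ages the covariate was the log2 CPM of miR-31 (prior count 2) centred by age; correlations used 100000 two-sided permutations within ages. Scripts were tested on simulated counts. Alternatives were DESeq2 1.42.0, limma-voom 3.58.1, other scalings, filters and subsets. Named hairpins were miR-31; the 4 names of smallest within-age p per direction, as none passed; the 5 most alike over age means; the whole keratinocyte list; and wound members that passed at 24 against 6 months. Others named were chosen after their values were seen. The members and lists were chosen with earlier results of these data known.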

Additional observations from a re-analysis of the deposited data

Results flagged for a closer look

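For miR-31, no library was flagged at any age by the gap rule given next. Its libraries farthest from their age means were 42 months replicate 5 (0.77 log2 units) and 12 months replicate 1 (-0.69). Of 165 groups of 5 libraries checked among the hairpins named, list sums and totals, 19 held a highest or lowest library whose gap to its nearest neighbour was over 0.71 of the group's range (Dixon's 95% limit). In independent groups, chance gives such a gap in about 1 in 20. Copies of a name and hairpins named for a small within-age p were among those checked. The count of 19 therefore cannot be set against that share.

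In 42 months replicate 5, the library with the most miR-31, miR-124-5 stood at 108.9 CPM, miR-124-2 at 109.5, miR-9-5 at 127.2, miR-9-7 at 185.0 and let-7i at 1762 CPM, each far above the other 42-month libraries. In 12 months replicate 1, the lowest later library for miR-31, miR-30d stood high at 10787 CPM, miR-125c at 1436 and miR-125a-1 at 1329 CPM. In 42 months replicate 2, the smallest library, miR-205 stood at 169039 CPM, miR-100-2 at 3855 CPM and the summed keratinocyte list at 208212 CPM, all high.

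In 6 months replicate 1, miR-125c was high at 1272 CPM and miR-223 at 104.7 CPM, and in 6 months replicate 3 the summed keratinocyte list was low at 83641 CPM. In 24 months replicate 1, miR-100-2 stood at 2528 CPM and miR-9-7 at 42.4 CPM, both high. In 36 months, miR-100-1 stood at 2818 CPM and miR-100-2 at 2918 CPM in replicate 1, and miR-210 at 870.6 CPM in replicate 2.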

How the results depend on the processing

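The levels of miR-31 and their differences from 6 months moved by less than the spread between libraries under every scaling, filter and omission run. Leaving out 1 library at a time, the mean was 47.1 to 52.8 CPM at 6 months, 141.7 to 165.8 at 12, 152.7 to 183.2 at 24, 151.1 to 174.7 at 36 and 175.6 to 228.7 at 42 months. The log2 differences of later ages from 6 months stayed between 1.52 and 2.21. The lowest later library was 1.301 to 1.65 times the highest at 6 months with each library in turn as TMM reference. No paired analysis was possible because the titles give each library a number of its own.

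Within ages, positive calls numbered 5 with DESeq2, 1 with upper-quartile scaling, and 4 and 3 with 24 months replicate 3 and 42 months replicate 1 as TMM reference. DESeq2 made 1 negative call. Leaving out 1 library gave 0 to 9 positive and 0 to 7 negative calls. Scaling moved the median slope of all hairpins from -0.04 to 0.09 (upper-quartile). In the 6-month and 24-month libraries alone, slopes turned to 0.15 (miR-30c), 0.32 (miR-30d), 0.47 (miR-125c), 0.23 (miR-125a-1) and 0.66 (miR-205). That of miR-203b, near 0, turned to -0.020 with limma-voom and lay between -0.020 and 0.26 over the omissions.

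From 6 to 12 months, rises and falls over all hairpins numbered 8 and 13 with DESeq2, 5 and 13 with limma-voom and 10 and 11 with only those ages. They numbered 21 and 17 without 42 months replicates 1, 2 and 5 (an alternative chosen, like the TMM references, after seeing the data). With upper-quartile scaling there was 1 rise and 0 falls, with copies summed 0 falls and with DESeq2's size factors 3 falls. The omissions gave 1 to 19 rises and 0 to 11 falls. The counts of rises include miR-31, chosen for its levels, and are no test of it. From 6 to 24 months there were 40 rises with DESeq2, 23 falls with copies summed and 25 with upper-quartile scaling, and 10 to 38 rises and 23 to 51 falls over the omissions.

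In the keratinocyte list, 1 member was lower at 12 months with DESeq2, limma-voom, only those ages, and without the 3 libraries of 42 months (0 to 1 over the omissions). Lower members at 24 months were 3 to 6 over the omissions. At 36 months they were 1 with copies summed, 4 with DESeq2 and limma-voom, and 1 to 4 over the omissions. At 42 months they were 1 without the 3 libraries and 4 to 6 over the omissions. From 24 to 36 months 0 rose with only those ages or upper-quartile scaling (0 to 1 over the omissions), and 1 fell from 36 to 42 months with a mean CPM of at least 100.

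In the wound list, rises at 12 months were 0 with only those ages or upper-quartile scaling, and 0 to 3 over the omissions. The filter for a mean CPM of at least 100 also gave 0. It had removed miR-132-2 and miR-132-3, with means of 64.1 and 63.9 CPM, so it did not test them. With only those ages and without the 3 libraries, 1 member fell. At 24 months rises were 4 with that filter, which left all copies of miR-132 and miR-212 untested, and 2 to 8 over the omissions. Falls were 0 with copies summed, 2 with limma-voom, only those ages and without the 3 libraries, and 0 to 2 over the omissions. They were also 0 with that filter, which had removed miR-155, with a mean of 85.7 CPM. miR-205 at 24 months turned to 0.015 with copies summed and 0.0027 with upper-quartile scaling, and ran from -0.35 to 0.073 over the omissions (-0.088 to 0.20 at 12 months). miR-210 at 12 months turned to 0.071 with copies summed, 0.074 with upper-quartile scaling and 0.021 with that filter, and ran from -0.11 to 0.091. The cause of these shifts was not tested. At 6 months, 140 to 300 miR-31 reads per library, taken as independent, gave a coefficient of variation of 7.70% from counting, below the 19.9% among libraries.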
